A study of Mus musculus with 12 samples.

Results

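The genes described here encode the TGF-beta superfamily signalling system in mouse cutaneous squamous cell carcinoma. They were chosen by symbol, as every row named for a TGF-beta (Tgfb1 to Tgfb3), BMP, GDF or inhibin/activin subunit, a TGF-beta, BMP or activin receptor, a SMAD, or a latent TGF-beta binding protein. No expression value entered the rule, which was set with earlier results of these data known. The rule took 53 genes of the 53801 rows in each count table: 28 ligands, 12 receptors, 8 SMADs, 4 latent TGF-beta binding proteins and Bmp1, which carries a BMP name but encodes a metalloprotease that processes procollagens. RNA was sequenced from cells that had been sorted from tumors of FVB mice, in 4 groups of 3 libraries. Carcinoma cells were basal tumor epithelial cells positive for Rosa-YFP and for the integrins CD49f and CD29, and they were divided by an mScarlet reporter of TGF-beta signalling into reporter-positive and reporter-negative cells. Tumor macrophages were positive for the leukocyte marker CD45 and for F4/80, and they were divided by surface staining for FceRIa, the subunit through which the high-affinity receptor binds IgE, into FceRIa-positive and FceRIa-negative cells. The age of the mice, the way the tumors were induced and the driver of the YFP label were not stated in the sources used here.

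TGF-beta ligands are secreted in a latent form, bound to their own propeptide, and latent TGF-beta binding proteins tether that complex to the extracellular matrix until integrins or proteases release the ligand. An active ligand brings a type II receptor together with a type I receptor, which phosphorylates receptor SMADs that enter the nucleus with Smad4. Smad2 and Smad3 serve TGF-beta and activin, Smad1, Smad5 and Smad9 serve BMPs, and Smad6 and Smad7 inhibit the pathway. In squamous carcinomas TGF-beta restrains growth of epithelial cells and favours invasion, and macrophages are known as one source of the ligand.

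Each library had between 27951632 and 35088897 counts in the carcinoma cells and between 33704786 and 40041144 counts in the macrophages. Levels are in CPM, which are counts divided by a library size that was normalized jointly over all 12 libraries and brought to 1 shared scale. As the floor for a gene with none, 3 counts were used, which covers counting error only. They correspond to 0.0749 to 0.107 CPM of the library totals before that normalization. Levels of different genes are compared only as CPM per kilobase of exon. The sorted identities were reflected in the defining markers. A summed 8-gene macrophage list stood at 28.3 to 89.7 CPM in the carcinoma cells and 9745 to 16886 CPM in the macrophages, and a summed 8-gene keratinocyte list at 62818 to 76943 CPM in the carcinoma cells and 580 to 3760 CPM in the macrophages. In the carcinoma cells replicates 1 and 3 of a group resembled each other more than either resembled replicate 2: the chi-square statistic per degree of freedom was 1.62 (positive) and 2.97 (negative) between replicates 1 and 3, and 43.1 to 90.6 in comparisons with replicate 2. The labels do not state that replicates are separate animals or tumors, and the p-values therefore cover the spread between these samples only, part of which may be technical. In bulk RNA, fewer cells of a type and less RNA per cell cannot be told apart.

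To show the regulatory sequence in front of the genes on which the comparison between cell types turned, the 250 bases before the RefSeq transcription start (GRCm38.p6) are printed for Tgfb1, Tgfbr1 and Tgfbr2, the ligand and the receptor pair that were higher in macrophages, and for Ltbp1, the binding protein with the widest difference towards the carcinoma cells. Capitals mark matches, on either strand, to a PU.1 core (GAGGAA), an AP-1 site (TGANTCA), an Sp1 box (GGGCGG), a SMAD element (CAGAC) or a cyclic AMP response element (TGACGTCA). The windows lie at chr7:25686752-25687001 (plus strand) for Tgfb1, chr4:47352972-47353221 (plus strand) for Tgfbr1, chr9:116175364-116175613 (minus strand) for Tgfbr2 and chr17:75005279-75005528 (plus strand) for Ltbp1. For Tgfbr1 and Ltbp1 the first of 2 listed windows is shown.
Tgfb1: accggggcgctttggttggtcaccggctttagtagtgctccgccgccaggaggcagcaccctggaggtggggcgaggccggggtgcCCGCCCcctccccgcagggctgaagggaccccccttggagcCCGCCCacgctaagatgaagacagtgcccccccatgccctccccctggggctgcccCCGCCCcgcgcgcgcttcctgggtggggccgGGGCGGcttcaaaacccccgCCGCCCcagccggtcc
Tgfbr1: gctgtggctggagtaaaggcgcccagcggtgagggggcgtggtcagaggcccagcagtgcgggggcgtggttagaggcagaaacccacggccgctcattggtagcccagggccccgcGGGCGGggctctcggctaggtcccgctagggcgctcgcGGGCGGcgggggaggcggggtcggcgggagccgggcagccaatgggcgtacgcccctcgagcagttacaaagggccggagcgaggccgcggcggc
Tgfbr2: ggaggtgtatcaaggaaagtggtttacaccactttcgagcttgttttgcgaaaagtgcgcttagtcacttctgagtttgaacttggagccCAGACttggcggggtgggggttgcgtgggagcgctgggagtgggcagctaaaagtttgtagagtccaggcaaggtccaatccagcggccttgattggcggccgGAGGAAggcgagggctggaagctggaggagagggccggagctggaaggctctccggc
Ltbp1: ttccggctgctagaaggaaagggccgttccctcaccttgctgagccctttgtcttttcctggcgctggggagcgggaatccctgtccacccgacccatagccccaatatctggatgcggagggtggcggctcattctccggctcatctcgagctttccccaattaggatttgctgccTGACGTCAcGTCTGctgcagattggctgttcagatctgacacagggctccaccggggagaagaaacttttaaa

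The Tgfb1 and Tgfbr1 windows were rich in G and C (75.2% and 74.8%) and held 5 and 2 Sp1 boxes. The Tgfbr2 window (58.4% G and C) held 1 SMAD element and 1 PU.1 core, and the Ltbp1 window (56.8%) held 1 cyclic AMP response element followed by 1 SMAD element. These motifs are short and common. Of 32851 RefSeq windows of the same length, 32.74% held an Sp1 box, 42.19% a SMAD element, 23.25% a PU.1 core, 6.749% an AP-1 site and 1.546% the cyclic AMP response element. A match describes the letters of the window and is not evidence that a factor binds there. RefSeq windows were found for 39 of the 53 genes.

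Of the 53 genes, 33 had a mean of at least 1 CPM in the carcinoma cells and 28 in the macrophages. Among the 28 ligands 11 reached that level in the carcinoma cells and 8 in the macrophages, and among the 12 receptors 11 and 9. The 38 genes named individually are those at 1 CPM or more in at least 1 of the 4 groups, those called in a comparison of positive with negative cells, and the TGF-beta ligands, their receptors and the SMADs whatever their level. The other 15 genes stayed below 0.862 CPM in every group. Among them Gdf1, Gdf2 and Inhbc had 0 counts in all 12 libraries, and all exonic bases of Gdf1 are shared with Cers1 or Upf1, whose reads cannot be told apart from its own when the strand setting and counting tool are unknown.

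**Figure D1:**
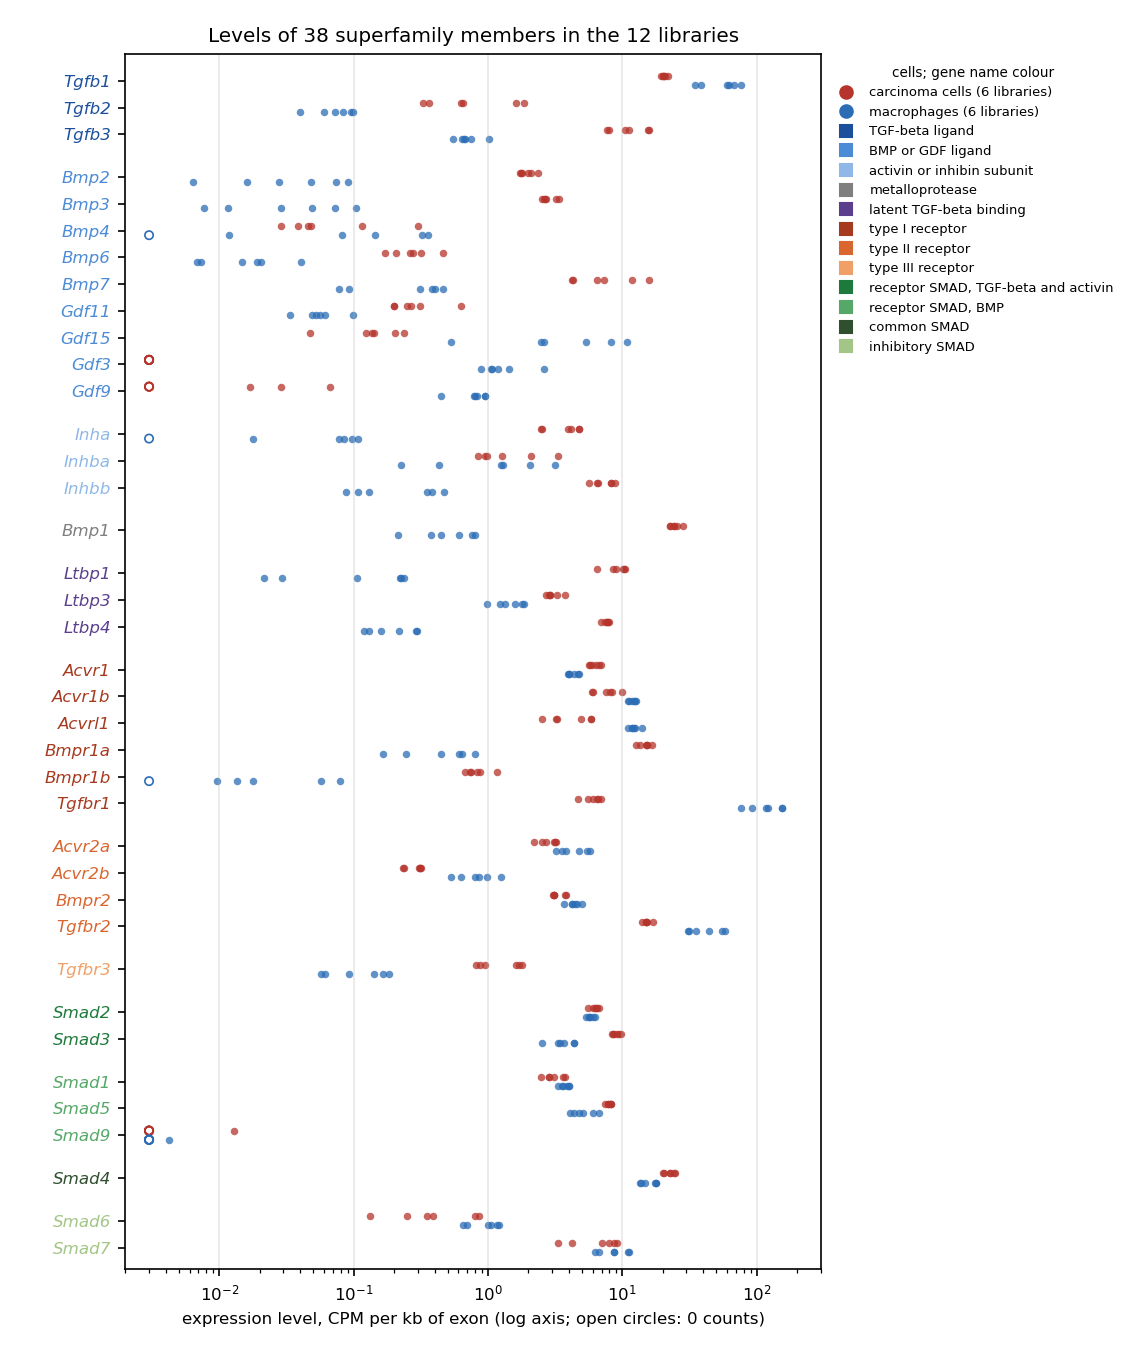
Level of each of the 38 named genes in every library, as CPM per kilobase of exon on a log axis, with carcinoma libraries (red) above macrophage libraries (blue), open circles for libraries with 0 counts, and gene names coloured by role. Tgfbr1 stands at a mean of 6.06 CPM per kilobase in carcinoma cells and 119 in macrophages, and Ltbp1 at 9.16 and 0.140.

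The first comparison set carcinoma cells against macrophages, to ask which cell type supplied the transcripts of the ligands and which those of the receptors. Carcinoma cells had more transcript of the ligands Bmp2, Bmp3, Bmp7, Inha, Inhbb, Tgfb2 and Tgfb3 and of the binding proteins Ltbp1 and Ltbp4, and macrophages had more Tgfb1, Tgfbr1 and Tgfbr2. Of the 53 genes 39 had enough counts for a test. By an adjusted p under 0.05 and at least a 2-fold difference, 17 were higher in carcinoma cells and 9 lower, against 26.7% and 31.7% of all 16279 genes tested. By role, 9 ligands were higher and 4 lower of 16 tested, 3 receptors higher and 4 lower of 11, 1 SMAD higher and 1 lower of 7, and 3 latent TGF-beta binding proteins higher and 0 lower of 4. The median log2 difference (carcinoma cells minus macrophages) was 0.50 over the tested members, against -0.09 over all genes. The ranges of the 6 carcinoma and 6 macrophage libraries did not overlap for 76.9% of the tested members, against 70.8% of all genes, so a wide gap between these cell types was usual among genes of any kind. With the replicate number as a block 17 were higher and 10 lower, against 26.9% and 31.6% of all genes. This block matches carcinoma and macrophage libraries of the same number. The labels give no link between the numbers of the 2 cell types, and such a link was not tested. Every block result between the cell types given below has this limit. The adjusted p values come from edgeR (quasi-likelihood test), with the Benjamini-Hochberg procedure run over all genes tested. The fit without the block takes all 12 libraries as separate samples. Positive and negative libraries of 1 number were not independent, as their deviations from the group means correlated (0.449 to 0.787). The p-values between cell types may therefore be too small. With these libraries summed, 1 of 37 results of single named genes was weaker. Cell type cannot be told apart from the sort and the set of libraries in this comparison.

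Among the TGF-beta ligands, Tgfb1 (ENSMUSG00000002603, chr7:25687002-25705077 on GRCm38), the isoform most used by immune cells, had a lowest, median and highest value of 98.1, 102 and 110 CPM in carcinoma cells, against 175, 310 and 386 CPM in macrophages. All 6 macrophage libraries lay above all 6 carcinoma libraries, and the macrophage mean was 2.78-fold higher (log2 difference -1.47 ± 0.18 SE, adjusted p = 1.50e-05). Tgfb3, an isoform known for its part in palate fusion and wound repair, had 25.9, 36.7 and 53.7 CPM in carcinoma cells, against 1.86, 2.27 and 3.47 CPM in macrophages, and its exons share 12.4% of their length with opposite-strand genes. It was higher in carcinoma cells by 4.0 ± 0.23 on the log2 scale (adjusted p = 2.68e-08). Tgfb2, an isoform that binds its receptors poorly without betaglycan, had 1.92, 3.73 and 10.8 CPM in carcinoma cells, against 0.229, 0.454 and 0.569 CPM in macrophages (log2 difference 3.59 ± 0.51, adjusted p = 4.99e-05). Per kilobase, Tgfb1 made up 63.1% ± 8.67 of the 3 TGF-beta isoforms in carcinoma cells and 98.5% ± 0.55 in macrophages (SD, n = 6 each). Tgfb3 supplied 34.3% of the isoforms in carcinoma cells and 1.34% in macrophages. Thus both cell types had Tgfb1 as their leading isoform, and a sizeable Tgfb3 share was found in the carcinoma cells.

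Bmp2, Bmp3, Bmp6, Bmp7 and Gdf11 were higher in carcinoma cells. Bmp7, a ligand of epithelial and kidney development, had 17.01, 27.6 and 63.9 CPM in carcinoma cells, against 0.314, 1.39 and 1.84 CPM in macrophages (log2 difference 4.81 ± 0.52, adjusted p = 4.85e-06). Bmp3, an atypical member that opposes other BMPs, had 18.7, 19.8 and 24.9 CPM against 0.0571, 0.288 and 0.770 CPM (log2 difference 5.95 ± 0.45, adjusted p = 2.50e-07). Bmp2, a ligand of bone and hair follicle development, had 6.16, 6.71 and 8.42 CPM in carcinoma cells, against 0.0228, 0.136 and 0.320 CPM in macrophages (log2 difference 5.78 ± 0.25, adjusted p = 3.00e-09). Bmp6, a regulator of iron balance, and Gdf11, a relative of myostatin, were also higher in carcinoma cells, at means of 1.10 and 1.25 CPM against 0.0709 and 0.238 CPM in macrophages. Each of these 5 genes had its lowest carcinoma library above its highest macrophage library.

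Of the activin and inhibin subunits, Inhbb and Inha were higher in carcinoma cells and Inhba was not called. Inhbb, the subunit of activin B, had 23.9, 31.6 and 37.5 CPM in carcinoma cells, against 0.372, 1.02 and 2.002 CPM in macrophages (log2 difference 4.82 ± 0.40, adjusted p = 5.31e-07). Inha, the alpha subunit that turns activin subunits into inhibins, had 3.64, 5.97 and 6.98 CPM against 0, 0.119 and 0.160 CPM (log2 difference 5.89 ± 0.44, adjusted p = 2.30e-07). Inhba, the subunit of activin A, had 5.43, 7.24 and 21.3 CPM in carcinoma cells, against 1.43, 8.08 and 20.1 CPM in macrophages. The ranges of Inhba overlapped, and the difference was 0.25 ± 0.55 on the log2 scale (adjusted p = 0.683). Its direction turned with replicate 2, which was high in both carcinoma groups and low in both macrophage groups: with the replicate block the log2 difference was -0.84 without replicate 2 (adjusted p = 0.00478) and 1.24 without replicate 1 (adjusted p = 0.225).

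Gdf15, Gdf3 and Gdf9 lay on the macrophage side. Gdf15, a distant member induced by cell stress, had 0.0872, 0.257 and 0.438 CPM in carcinoma cells, against 0.979, 7.39 and 19.9 CPM in macrophages (log2 difference -4.92 ± 0.64, adjusted p = 2.24e-05). Gdf3, a relative of Nodal expressed in early embryos and adipose tissue macrophages, had 0 counts in all 6 carcinoma libraries and 2.14, 2.74 and 6.297 CPM in macrophages. Set against a floor of 0.107 CPM (3 counts in the shallowest carcinoma library, before normalization), its macrophage mean was 31.0-fold higher (adjusted p = 2.29e-06). On the normalized scale 3 counts in that library are 0.109 CPM, so the fold is slightly smaller there. Gdf9, best known from oocytes, had between 0 and 4 counts in each carcinoma library and 0.914, 1.66 and 1.94 CPM in macrophages (adjusted p = 1.68e-06). All macrophage libraries lay above all carcinoma libraries for these 3 genes, whose macrophage levels were nevertheless low beside Tgfb1: per kilobase they stood at 4.99, 1.37 and 0.797 CPM, against 56.8 CPM for Tgfb1.

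Ltbp1, Ltbp3, Ltbp4 and Bmp1 were higher in carcinoma cells. Ltbp1 (ENSMUSG00000001870, chr17:75005568-75392512), which tethers latent TGF-beta to matrix, had 69.0, 102 and 112 CPM in carcinoma cells, against 0.229, 1.74 and 2.53 CPM in macrophages (log2 difference 6.02 ± 0.50, adjusted p = 5.77e-07). Ltbp4, which serves elastic fibre assembly and binds latent TGF-beta1, had 44.5, 49.5 and 51.6 CPM against 0.771, 1.22 and 1.91 CPM (log2 difference 5.23 ± 0.21, adjusted p = 1.70e-09). Ltbp3, which also binds latent TGF-beta, had 24.6, 26.2 and 33.8 CPM in carcinoma cells, against 8.92, 13.3 and 16.8 CPM in macrophages. Its difference of 1.07 ± 0.14 (adjusted p = 2.16e-05) lay just past 2-fold, and it was 0.82 when replicate 2 of all groups was left out. Per kilobase, Ltbp1 made up 45.9% of the 4 binding protein transcripts in carcinoma cells and 7.31% in macrophages, Ltbp4 made up 38.3% in carcinoma cells and 10.8% in macrophages, and Ltbp3 made up 15.5% in carcinoma cells and 77.7% in macrophages. The levels of Ltbp1 and Ltbp4 overlapped in carcinoma cells, and Ltbp4 led in reporter-positive replicate 2. Bmp1, whose product also cleaves Ltbp1, had 200, 214 and 252 CPM in carcinoma cells, against 1.89, 4.69 and 7.11 CPM in macrophages (log2 difference 5.52 ± 0.32, adjusted p = 2.72e-08).

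Tgfbr1, Tgfbr2, Acvrl1 and Acvr2b were lower in carcinoma cells. Tgfbr1 (ENSMUSG00000007613, chr4:47353222-47414931), the type I receptor for TGF-beta, had 30.6, 41.2 and 45.2 CPM in carcinoma cells, against 495, 779 and 1014 CPM in macrophages. The macrophage mean was 19.7-fold higher (log2 difference -4.29 ± 0.20, adjusted p = 5.59e-09), the widest gap of any receptor towards macrophages. By CPM per kilobase Tgfbr1 ranked 5881st of 53620 genes in carcinoma cells and 387th in macrophages. Tgfbr2 (ENSMUSG00000032440, chr9:116084293-116175360), the type II receptor that binds TGF-beta first, had 115, 123.03 and 138 CPM in carcinoma cells, against 254, 327 and 477 CPM in macrophages (log2 difference -1.45 ± 0.09, adjusted p = 3.41e-08). Acvrl1, a type I receptor best known from endothelium, had 10.8, 17.5 and 24.9 CPM against 47.0, 51.1 and 60.2 CPM (log2 difference -1.58 ± 0.09, adjusted p = 1.73e-08). Acvr2b, a type II receptor for activins, was at means of 1.12 CPM in carcinoma cells and 3.30 CPM in macrophages (log2 difference -1.56 ± 0.22, adjusted p = 4.21e-05). These 4 receptors had no overlap between the cell types.

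Bmpr1a, Bmpr1b and Tgfbr3 were higher in carcinoma cells. Bmpr1a, the main BMP type I receptor of skin epithelium, had 80.9, 96.5 and 105 CPM in carcinoma cells, against 1.06, 3.35 and 5.05 CPM in macrophages (log2 difference 4.94 ± 0.33, adjusted p = 9.54e-08). Bmpr1b, its close relative, had 4.02, 4.71 and 7.003 CPM against 0, 0.0929 and 0.472 CPM (log2 difference 5.14 ± 0.46, adjusted p = 9.61e-07). Tgfbr3 (ENSMUSG00000029287), the type III receptor betaglycan that presents ligand to the signalling receptors, had 5.35, 8.43 and 11.6 CPM in carcinoma cells, against 0.371, 0.767 and 1.20 CPM in macrophages (log2 difference 3.42 ± 0.25, adjusted p = 2.01e-07). Acvr1, Acvr1b, Acvr2a and Bmpr2, which serve activins and BMPs, differed by less than 2-fold, with log2 differences of 0.54, -0.64, -0.65 and -0.39. As a share of the type I receptor transcripts per kilobase, Tgfbr1 stood at 15.3% ± 2.56 in carcinoma cells and 79.7% ± 4.84 in macrophages, and Bmpr1a at 37.2% ± 2.77 and 0.33% ± 0.16 (SD, n = 6 each). Tgfbr2 led the type II receptors of both, with 70.3% in carcinoma cells and 80.9% in macrophages.

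**Figure D2:**
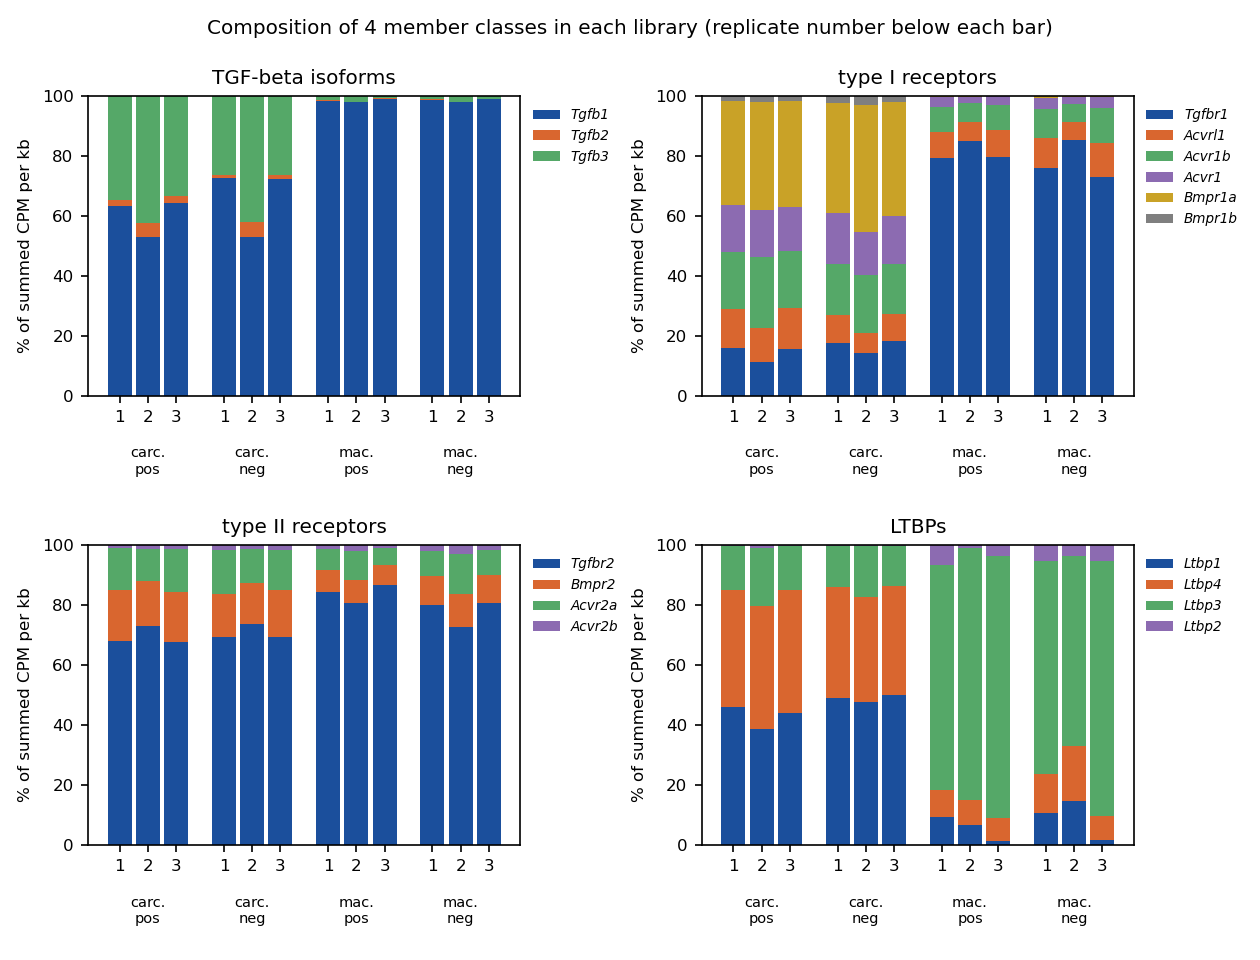
Shares of the 3 TGF-beta isoforms, the type I receptors, the type II receptors and the latent TGF-beta binding proteins in each library, as percent of their summed CPM per kilobase, with reporter-positive and reporter-negative carcinoma cells followed by FceRIa-positive and FceRIa-negative macrophages. Tgfbr1 fills 79.7% of the type I receptor bar on average in macrophages and 15.3% in carcinoma cells.

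Within each cell type the genes were also ordered by level per kilobase. In carcinoma cells the ligands ran from Tgfb1 (20.5 CPM per kilobase) through Tgfb3 (11.5), Bmp7 (8.31) and Inhbb (7.35), the last 3 with overlapping ranges, to Inha (3.75), Bmp3 (2.84) and Bmp2 (1.96). Their receptors were led by Tgfbr2 (15.2) and Bmpr1a (14.7), whose ranges overlapped, followed by Acvr1b (7.67), Acvr1 (6.21), Tgfbr1 (6.06) and Acvrl1 (4.27). In macrophages Tgfb1 (56.8) stood well clear of Gdf15 (4.99), Inhba (1.396), Gdf3 (1.37), Gdf9 (0.797) and Tgfb3 (0.717), and neighbours among these overlapped. Macrophage receptors ran from Tgfbr1 (119) and Tgfbr2 (42.6), which did not overlap, to Acvrl1 (12.2) and Acvr1b (11.9), which did.

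Of the 7 SMADs tested Smad3 was higher in carcinoma cells and Smad6 lower. Smad3, a receptor SMAD of TGF-beta and activin that binds DNA directly, had 46.1, 49.7 and 54.4 CPM in carcinoma cells, against 13.9, 19.7 and 24.4 CPM in macrophages (log2 difference 1.33 ± 0.08, adjusted p = 5.79e-08). Its partner Smad2 had 49.1, 55.3 and 59.2 CPM against 47.5, 50.2 and 54.6 CPM, with overlapping ranges (log2 difference 0.10 ± 0.06, adjusted p = 0.138). Smad3 therefore made up 59.0% ± 1.81 of Smad2 plus Smad3 per kilobase in carcinoma cells and 38.1% ± 5.17 in macrophages (SD, n = 6 each). Smad4, the common partner, and Smad5, a BMP SMAD, were higher in carcinoma cells by less than 2-fold (log2 differences 0.50 and 0.62). Smad1, another BMP SMAD, had a log2 difference of -0.26 and Smad7, the inhibitor induced by TGF-beta itself, one of -0.38 (adjusted p = 0.0421 and 0.190, and 0.00647 for Smad7 in a fit with the replicate number as a block). Smad6, the inhibitor of BMP signalling, had 0.422, 1.19 and 2.74 CPM in carcinoma cells, against 2.07, 3.29 and 3.86 CPM in macrophages. The groups overlapped, its difference was -1.06 ± 0.41 (adjusted p = 0.0317), and the adjusted p exceeded 0.05 in 7 of the 12 fits that left out 1 library, reaching 0.0736. Smad9 had 2 counts in 1 carcinoma library and 1 count in 1 macrophage library. The replicate block added Bmp8a, a BMP of germ cells, to the genes lower in carcinoma cells (log2 difference -1.51 ± 0.63, adjusted p = 0.0474), against 0.0637 without it.

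**Figure D3:**
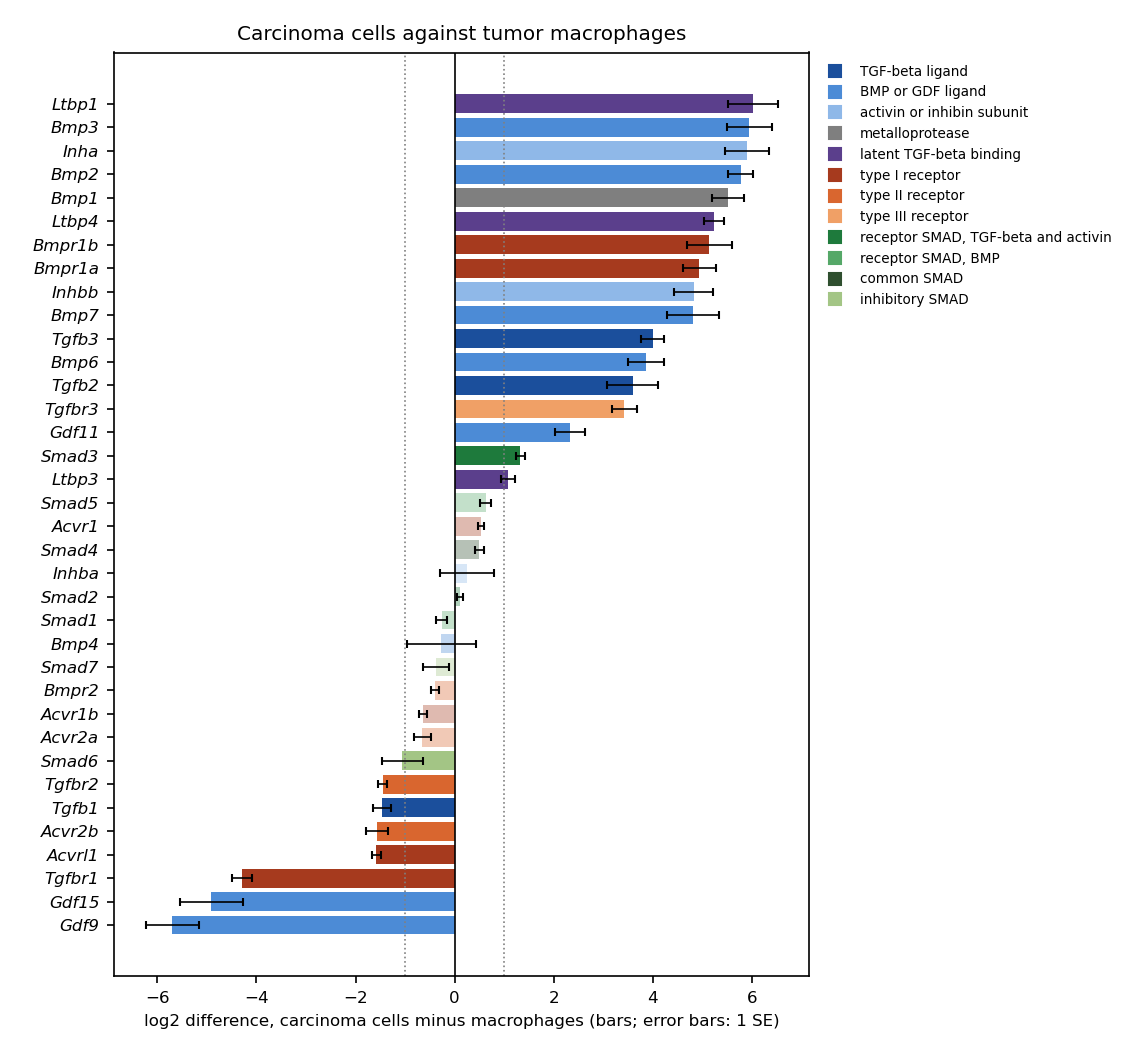
Log2 difference (carcinoma cells minus macrophages, bars, ± 1 SE) of each tested named gene, sorted, with pale bars for genes not called and dotted lines at 2-fold. Gdf3, at 0 in all carcinoma libraries, and the untested Smad9 are not drawn. Ltbp1 has the longest bar towards carcinoma cells (6.02).

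Transcripts of the other cell type were measured beside these values. In the macrophage libraries 5 of the 8 keratinocyte markers (Krt5, Krt14, Trp63, Itgb4 and Perp) stood at 0.108% to 8.25% of their carcinoma mean. The other 3 were left out of this range after their values were seen. Cdh1 was at 202 to 383 CPM in carcinoma cells and 135 to 1405 CPM in macrophages, Epcam at 170 to 204 CPM and 15.6 to 511 CPM, and Itga6 at 926 to 1289 CPM and 48.1 to 95.5 CPM, so Cdh1 and Epcam were higher in some macrophage libraries than in any carcinoma library. Ltbp1 (0.233% to 2.59% of its carcinoma mean) and Bmp3 (0.272% to 3.67%) were within the range of those 5 markers in 6 of 6 macrophage libraries. Bmpr1a, Bmp1 and Ltbp4 were within it in 4 and above it in replicate 3 of both groups, where these markers were lowest. That position depends on leaving out Itga6, which had 77.1 and 48.1 CPM in replicate 3 of the positive and negative macrophages. With Itga6 in the range, these genes would lie within it there. In the carcinoma libraries 6 of the 8 macrophage markers (Adgre1, Csf1r, Cd68, C1qa, C1qb and Ptprc) stood at 0.0347% to 2.17% of their macrophage mean. The other 2 were Cd14, at 14.02 to 30.7 CPM in carcinoma cells and 564 to 1033 CPM in macrophages, and Mrc1, at 4.21 to 7.53 CPM and 721 to 3793 CPM. Tgfb1 (34.3% to 38.4%), Tgfbr2 (32.8% to 39.4%), Acvrl1 (20.8% to 47.9%) and Tgfbr1 (3.92% to 5.79%) were above the range of those 6 markers in every carcinoma library. That range does not include Cd14 or Mrc1.

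The second comparison set reporter-positive against reporter-negative carcinoma cells, to find which genes of the system differ between cells that do and do not show TGF-beta signalling. The TGF-beta isoforms and the receptor pair Tgfbr1 and Tgfbr2 did not pass the test in either fit, betaglycan (Tgfbr3) was lower in reporter-positive cells, and Acvrl1 was higher in a fit with the replicate number as a block. Of 34 genes tested, 0 were higher and 1 lower without the block (the unpaired fit), against 0.573% and 0.235% of all 13604 genes. At an unadjusted p under 0.05 there were 9 members, against 19.4% of all genes, and DESeq2 without the block called 3 higher and 1 lower, against 8.55% of all genes in both directions. With the block (the paired fit) 6 were higher and 2 lower, against 10.7% and 7.34% of all genes. The groups did not overlap for 29.4% of the members and for 28.1% of all genes, and the median log2 difference was 0.05 over the members and 0.00 over all genes, both near the background. Without replicate 2 in either group the unpaired fit called 15 members higher, with only the near-identical replicates 1 and 3 left to give the spread. No share over all genes is given for that fit or for the summed fits that follow. Their counts therefore cannot be read as a result about the members. With replicates 1 and 3 of each group summed, the paired fit called Acvrl1, Acvr1b, Bmp7, Inhbb and Tgfbr3 and no longer Ltbp1 (adjusted p = 0.0687), Inhba (0.0861) or Smad7 (0.150), and the unpaired fit called 0 members.

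Among the ligands, Tgfb1 had 103, 98.1 and 102 CPM in replicates 1 to 3 of the reporter-positive cells, against 110, 101 and 105 CPM in the reporter-negative cells. The values nearly coincided (log2 difference -0.07 ± 0.06, adjusted p = 0.589). Tgfb2 had 3.67, 9.29 and 3.80 CPM in reporter-positive cells, against 1.92, 10.8 and 2.12 CPM in reporter-negative cells, with replicate 2 high in both groups and of opposite direction to the other pairs (adjusted p = 0.934). Tgfb3 had 38.02, 52.8 and 35.4 CPM against 26.9, 53.7 and 25.9 CPM (adjusted p = 0.744). The paired fit called neither (adjusted p = 0.306 for Tgfb2 and 0.120 for Tgfb3).

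Inhbb and Bmp7 were the ligand genes whose paired call held whichever pair was left out. In carcinoma cells this is a weak check, also for the receptors below. Pairs 1 and 3 were near-identical, so leaving out either changed little, and leaving out pair 2 left only near-identical pairs. Inhbb had 35.2, 37.5 and 35.3 CPM in reporter-positive cells, against 27.5, 23.9 and 28.1 CPM in reporter-negative cells, with no overlap (log2 difference 0.43 ± 0.08, adjusted p = 0.0744 unpaired and 0.0171 paired). Bmp7 had 29.3, 63.9 and 25.8 CPM in reporter-positive cells, against 17.2, 47.1 and 17.01 CPM in reporter-negative cells. Replicate 2 was high in both groups, so the groups overlapped, and the positive library was higher in each of the 3 pairs (paired log2 difference 0.59 ± 0.08, adjusted p = 0.00914 paired and 0.635 unpaired). Inhba had 6.29, 21.3 and 8.18 CPM against 5.43, 13.4 and 6.11 CPM (paired log2 difference 0.45 ± 0.11, adjusted p = 0.0408 paired and 0.680 unpaired), and its paired call was lost without pair 3 (adjusted p = 0.114). Bmp2 and Bmp3 were level, at means within the spread of the replicates (log2 differences -0.11 and -0.02). Gdf11 had 1.27, 2.54 and 1.09 CPM in reporter-positive cells, against 0.813, 1.01 and 0.814 CPM in reporter-negative cells. Bmp6 had 1.23, 1.82 and 1.09 CPM against 1.02, 0.808 and 0.669 CPM. Neither gene's groups overlapped, and neither was called in the unpaired or paired fit.

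Ltbp1 was the binding protein with a paired call, lost when replicates 1 and 3 were summed. It had 95.97, 69.0 and 91.5 CPM in reporter-positive cells, against 111, 112 and 109 CPM in reporter-negative cells, with every positive library below every negative one (paired log2 difference -0.39 ± 0.10, adjusted p = 0.0458 paired and 0.192 unpaired). Ltbp3 and Ltbp4 had log2 differences of -0.06 and -0.03, and Bmp1 had 214, 226.6 and 215 CPM against 200, 252 and 200 CPM (adjusted p = 0.997).

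Among the receptors Tgfbr3, Acvrl1 and Acvr1b had paired calls. Tgfbr3 (chr5:107106570-107289629, minus strand) had 5.74, 5.35 and 6.23 CPM in reporter-positive cells, against 11.6, 11.1 and 10.6 CPM in reporter-negative cells. Its groups were far apart, at a log2 difference of -0.95 ± 0.11 (adjusted p = 0.0391 unpaired and 0.00624 paired). It was the only member called in the unpaired fit, where leaving out a single library gave adjusted p values of 0.0194 to 0.250 with a call in 1 of 6 fits, and its paired call held without each of the 3 pairs. Acvrl1 (chr15:101128522-101145336) had 24.9, 21.0 and 24.9 CPM in reporter-positive cells, against 13.9, 10.8 and 13.7 CPM in reporter-negative cells. Each positive library exceeded each negative one, and the paired log2 difference was 0.88 ± 0.07 (adjusted p = 0.00320 paired and 0.0539 unpaired), again without loss when a pair was left out. Acvr1b, the type I receptor for activin, had 37.0, 44.0 and 35.9 CPM against 26.6, 33.5 and 26.3 CPM (paired log2 difference 0.43 ± 0.06, adjusted p = 0.00862 paired and 0.131 unpaired). These groups did not overlap either. As a share of type I receptor transcripts per kilobase, Acvrl1 made up 12.9% ± 1.09 in reporter-positive cells and 8.29% ± 1.55 in reporter-negative cells (SD, n = 3 each).

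Tgfbr1, Tgfbr2 and Bmpr1a did not pass the test by reporter status. Tgfbr1 had 45.2, 30.6 and 42.9 CPM in reporter-positive cells, against 39.7, 36.4 and 42.7 CPM in reporter-negative cells (log2 difference -0.01 ± 0.16, adjusted p = 0.991). Tgfbr2 had 124, 122.6 and 123.5 CPM against 122, 138 and 115 CPM (log2 difference -0.02 ± 0.08, adjusted p = 0.913). Bmpr1a had 97.1, 97.0 and 95.9 CPM in reporter-positive cells, against 80.9, 105 and 85.8 CPM in reporter-negative cells (adjusted p = 0.710). All 3 had overlapping groups. Acvr1 (30.6 to 33.3 CPM in reporter-positive and 27.3 to 28.6 CPM in reporter-negative cells) and Acvr2b (0.908 to 1.19 CPM and 1.22 to 1.25 CPM) did not overlap. Neither was called in the unpaired or paired fit.

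Among the SMADs only Smad7 was called, in the paired fit. It had 41.6, 19.1 and 39.4 CPM in reporter-positive cells, against 36.0, 15.1 and 31.7 CPM in reporter-negative cells, with replicate 2 low in both (paired log2 difference 0.28 ± 0.06, adjusted p = 0.0285 paired and 0.785 unpaired). The call was lost without pair 1 (adjusted p = 0.0967) or pair 3 (0.186). Smad3 had 52.3, 54.4 and 51.0 CPM against 48.4, 46.1 and 46.9 CPM, which did not overlap but did not pass the test (log2 difference 0.15 ± 0.05, adjusted p = 0.199 unpaired and 0.0984 paired). Smad2, Smad4 and Smad5 had log2 differences of 0.04, 0.07 and -0.02.

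Markers of other cells were set beside the Acvrl1 result, since endothelial cells and macrophages also express it. The summed 6-gene endothelial list had 21.9, 30.1 and 24.9 CPM in reporter-positive cells, against 24.6, 18.4 and 23.8 CPM in reporter-negative cells. The summed macrophage list had 36.0, 89.7 and 34.4 CPM against 28.9, 59.8 and 28.3 CPM. The endothelial sums overlapped, but their markers differed. Pecam1 had 12.8, 18.7 and 14.1 CPM in reporter-positive cells, against 12.1, 11.9 and 11.2 CPM in reporter-negative cells, without overlap. Emcn was lower in the positive library of each pair, and Cdh5 in pairs 1 and 3. Kdr, Tek and Tie1 had no single direction. The macrophage sums were higher in the positive library of each pair. The 6 macrophage markers named above stood at or below 2.17% of their macrophage mean, and Acvrl1 at 20.8% to 47.9%. Cd14, outside those 6, had 15.2, 30.7 and 15.8 CPM against 14.0, 21.3 and 14.7 CPM. The part of other cells in the Acvrl1 result was not tested. The summed 7-gene fibroblast list had 55.6, 187 and 42.9 CPM in reporter-positive cells, against 77.8, 146 and 46.3 CPM in reporter-negative cells, and it was highest in replicate 2 of both groups, as were Bmp7, Tgfb2, Tgfb3 and Inhba. Its part in those values was not tested. Of the 6 T cell markers, Cd3e, Cd3d and Cd2 were at 0 in all carcinoma libraries. Cd3g was at or below 0.0343 CPM and Trac at 0.145 to 0.217 CPM. Lck had 0.389, 0.548 and 0.326 CPM in reporter-positive cells, against 1.07, 1.14 and 0.814 CPM in reporter-negative cells.

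**Figure D4:**
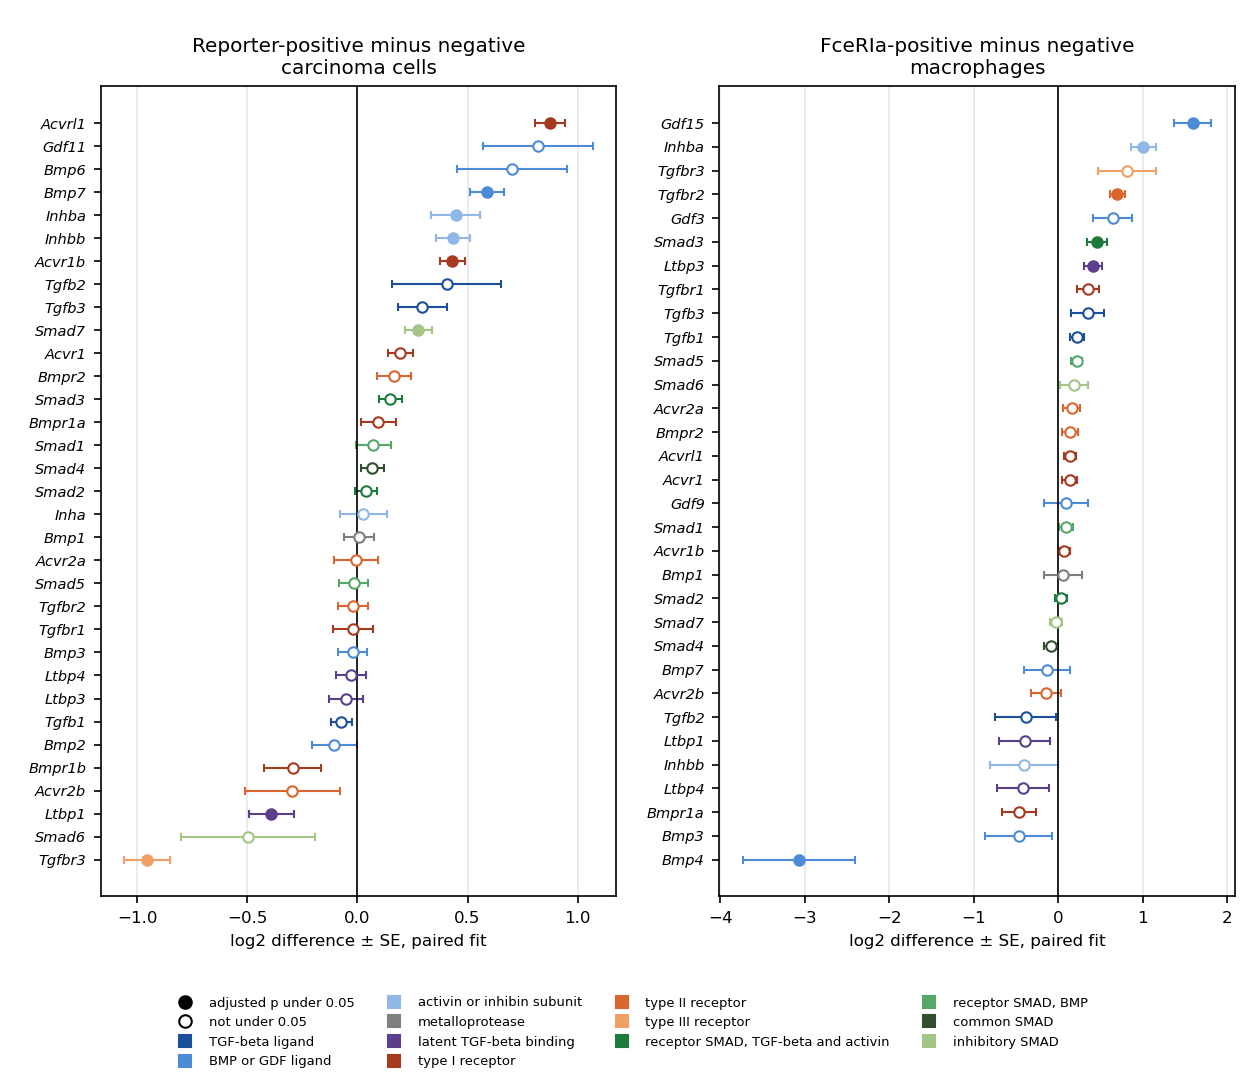
Log2 difference (positive minus negative, ± 1 SE, paired fit) of each tested named gene in carcinoma cells (left) and macrophages (right), with filled points for an adjusted p under 0.05. Acvrl1 (0.88) and Tgfbr3 (-0.95) lie at either end of the called carcinoma genes.

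The third comparison set FceRIa-positive against FceRIa-negative macrophages. Tgfbr2 was higher in FceRIa-positive macrophages in every pair, together with Inhba, Gdf15, Smad3 and Ltbp3, and the low transcript Bmp4 was lower, all of these in the paired edgeR fit and not in the unpaired one. Of 34 genes tested 0 were called in the unpaired fit, as were 0% of all 14988 genes, and 3 members had an unadjusted p under 0.05, against 15.6% of all genes. DESeq2 without the block called 1 member, Tgfbr2, against 8.43% of all genes. The paired fit called 5 members higher and 1 lower, against 10.8% and 10.2% of all genes. Groups did not overlap for 8.82% of the members, against 21.2% of all genes.

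Tgfbr2 had 477, 364 and 452 CPM in replicates 1 to 3 of the FceRIa-positive macrophages, against 290, 254 and 258 CPM in the FceRIa-negative macrophages. The lowest positive library was above the highest negative one (log2 difference 0.70 ± 0.14 unpaired with adjusted p = 0.0682, and 0.70 ± 0.09 paired with adjusted p = 0.00148). The paired call held without each of the 3 pairs, with adjusted p values of 0.0305, 0.00141 and 2.65e-06. Tgfbr1 had 760, 1013 and 799 CPM against 601, 1014 and 495 CPM, higher in the positive library of pairs 1 and 3 but not of pair 2 (adjusted p = 0.734 unpaired and 0.0966 paired). The paired DESeq2 fit called it (adjusted p = 0.0335), as did the paired edgeR fit without pair 2 (0.0385). Acvrl1 had 52.6, 50.3 and 60.2 CPM in positive macrophages, against 52.0, 47.0 and 49.96 CPM in negative macrophages (adjusted p = 0.629), so its difference in carcinoma cells had no counterpart that passed the test here. Whether the Acvrl1 differences in the 2 cell types differ from each other was not tested.

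Among the ligands, Tgfb1 had 343, 196 and 386 CPM in FceRIa-positive macrophages, against 314, 175 and 305 CPM in FceRIa-negative macrophages. It was the leading isoform in every library and did not pass the test (log2 difference 0.23 ± 0.32, adjusted p = 0.846 unpaired and 0.0966 paired). Gdf15 had 15.2, 4.81 and 19.9 CPM against 4.57, 0.979 and 9.97 CPM (paired log2 difference 1.59 ± 0.22, adjusted p = 0.00208 paired and 0.525 unpaired). Inhba had 20.1, 2.75 and 13.1 CPM in positive macrophages, against 8.22, 1.43 and 7.94 CPM in negative macrophages (paired log2 difference 1.01 ± 0.15, adjusted p = 0.00286 paired and 0.666 unpaired). Both genes were low in replicate 2 and higher in the positive library of each pair, and both lost the paired call without pair 1 (adjusted p = 0.0525 and 0.0555). Gdf3 had 2.62, 3.49 and 6.297 CPM against 2.14, 2.87 and 2.57 CPM (adjusted p = 0.425 unpaired and 0.0881 paired). Bmp4, a BMP of mesenchyme, had 1, 7 and 0 counts in positive macrophages, against 13, 32 and 28 counts in negative macrophages. Its groups did not overlap, at 0 to 0.185 CPM against 0.323 to 0.800 CPM, and it was lower in the paired fit (adjusted p = 0.0144, against 0.175 unpaired), a call lost without pair 1 (0.0932).

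Smad3 had 20.5, 24.3 and 24.4 CPM in FceRIa-positive macrophages, against 18.2, 18.9 and 13.9 CPM in FceRIa-negative macrophages, with no overlap (paired log2 difference 0.46 ± 0.12, adjusted p = 0.0316 paired and 0.213 unpaired). Per kilobase it made up 41.6% ± 2.21 of Smad2 plus Smad3 in positive macrophages and 34.7% ± 5.17 in negative macrophages (SD, n = 3 each). Its paired call was lost without pair 1 (adjusted p = 0.0674) or pair 3 (0.0677). Ltbp3 had 16.3, 12.1 and 16.8 CPM against 14.5, 8.92 and 11.2 CPM, overlapping between groups and higher in each pair (paired log2 difference 0.41 ± 0.11, adjusted p = 0.0335 paired and 0.481 unpaired), and it was called in none of the 3 fits that left out a pair. Smad1, Smad2, Smad4 and Smad7 had log2 differences of 0.09, 0.03, -0.09 and -0.03.

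**Figure D5:**
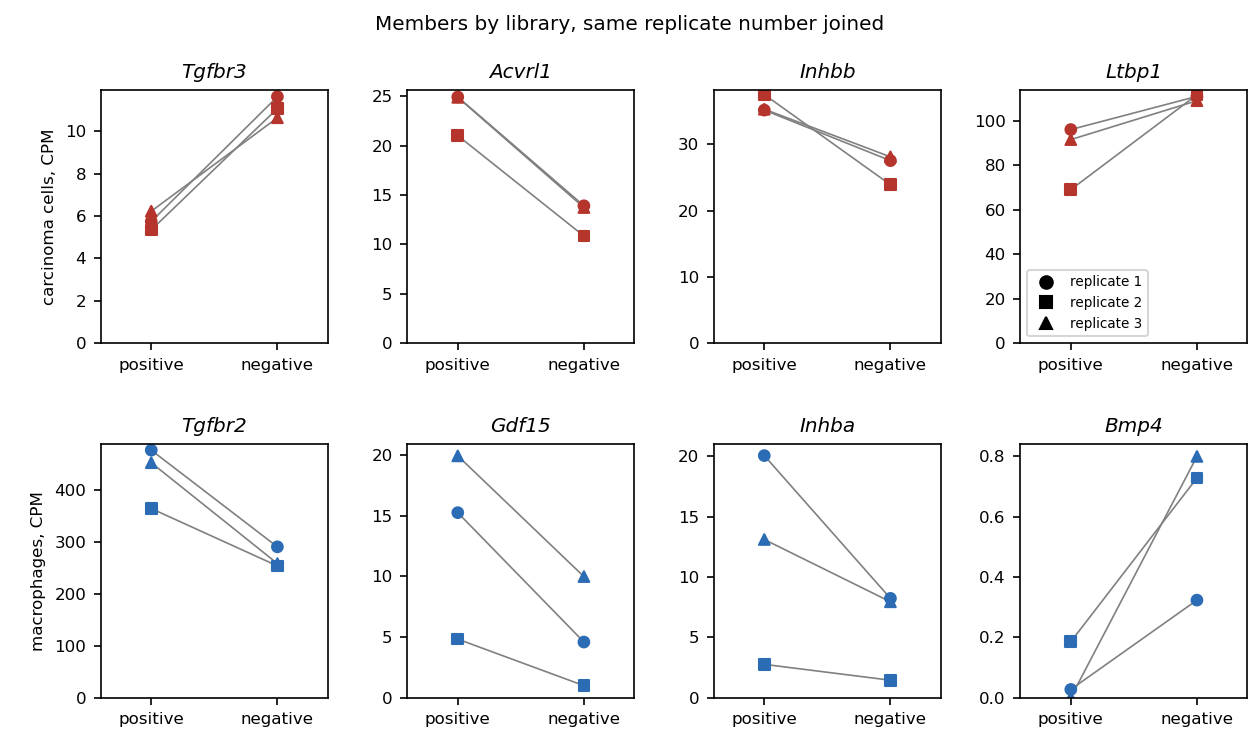
CPM in each library with libraries of the same replicate number joined, positive left of negative, for Tgfbr3, Acvrl1, Inhbb and Ltbp1 in carcinoma cells (top) and Tgfbr2, Gdf15, Inhba and Bmp4 in macrophages (bottom). Every line has the same direction within a panel, and Tgfbr2 runs at 364 to 477 CPM in FceRIa-positive and 254 to 290 CPM in FceRIa-negative macrophages.

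Markers of macrophages and of other cells moved with FceRIa status, and their part in these results was not tested. The summed macrophage list had 16886, 14987 and 16048 CPM in FceRIa-positive macrophages, against 12250, 11577 and 9745 CPM in FceRIa-negative macrophages. Within it Mrc1 had 3793, 2145 and 2623 CPM against 1184, 1011 and 721 CPM. Adgre1, Csf1r, Cd68, C1qa and C1qb were also higher in each pair. Ptprc was nearly level, at 1089, 1358 and 1144 CPM against 1023, 1328 and 1089 CPM. Cd14 was lower in each pair, at 994, 564 and 956 CPM against 1008, 599 and 1033 CPM. The T cell list had 3.34, 2.09 and 5.21 CPM against 31.6, 4.73 and 36.6 CPM, and the 6-gene mast cell list 32.2, 8.70 and 38.7 CPM against 72.6, 16.6 and 147 CPM. Both sums were lower in the positive library of each pair. The mast cell sum was carried by Hdc and Kit, and the mast cell proteases Cpa3, Mcpt4, Tpsb2 and Cma1 were at 0.187 to 0.793 CPM in positive and 0.273 to 1.06 CPM in negative macrophages, with overlapping groups. The 5-gene neutrophil list overlapped, with 233, 120 and 189 CPM against 337, 97.0 and 400 CPM. The keratinocyte list had 2111, 1470 and 580 CPM in FceRIa-positive macrophages, against 3760, 2740 and 2182 CPM in FceRIa-negative macrophages. Cdh1 and Epcam supplied much of that sum in negative replicate 3 (1405 and 511 CPM), and the sum is therefore not a measure of keratinocyte RNA alone. The endothelial list had 84.3, 52.6 and 82.9 CPM in positive macrophages, against 57.6, 38.8 and 44.6 CPM in negative macrophages, higher in the positive library of each pair as were Tgfbr2 and Eng, with Pecam1 at 66.5, 34.8 and 63.5 CPM against 40.3, 19.1 and 30.8 CPM. The fibroblast list overlapped, with 226, 73.4 and 82.1 CPM against 121, 104 and 118 CPM.

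Other genes of the pathway were taken from 5 lists of 62 regulators (coreceptors and decoys, extracellular antagonists, latency and activation, and intracellular regulators among them). These lists were written with earlier results of these data known. Between carcinoma cells and macrophages 18 of 50 tested were higher and 11 lower, against 26.7% and 31.7% of all genes. Fst, the activin trap follistatin, was at 229, 477 and 624.8 CPM (lowest, median and highest) in carcinoma cells, against 0.657, 4.19 and 8.05 CPM in macrophages (log2 difference 6.86 ± 0.68, adjusted p = 2.31e-06). Itgb6, whose integrin activates latent TGF-beta on epithelia, was at 17.5, 21.6 and 23.4 CPM in carcinoma cells, against 0.0286, 0.574 and 0.842 CPM in macrophages (log2 difference 5.42 ± 0.51, adjusted p = 1.43e-06). Fstl3, another activin-binding follistatin protein, and Nog, the BMP antagonist noggin, also lay on the carcinoma side (means of 20.8 and 1.38 CPM, against 0.22 and 0.01 CPM in macrophages). Nrros, which anchors latent TGF-beta1 on the surface of myeloid cells, was at 0.227, 0.406 and 1.25 CPM in carcinoma cells, against 179, 219 and 257 CPM in macrophages (log2 difference -8.66 ± 0.35, adjusted p = 1.90e-09). Dab2, an endocytic adaptor that binds TGF-beta receptors, Emilin1, a matrix protein that limits TGF-beta1 processing, and the coreceptor Eng were likewise lower in carcinoma cells (means of 3.16, 0.50 and 2.85 CPM, against 1050, 135 and 35.6 CPM).

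By reporter status the unpaired fit called 0 of 50 regulators, and the paired fit called 7 higher and 4 lower, against 10.7% and 7.34% of all genes, so both shares were near the background. Smurf1, a ubiquitin ligase for SMADs and receptors, had 143, 139 and 144 CPM in reporter-positive cells, against 112, 94.4 and 110 CPM in reporter-negative cells (adjusted p = 0.00831 paired and 0.0769 unpaired). Sostdc1, a secreted BMP antagonist of hair follicles and teeth, had 10.6, 19.6 and 9.63 CPM against 22.5, 46.7 and 21.1 CPM (paired log2 difference -1.17 ± 0.07, adjusted p = 0.00208 paired and 0.178 unpaired). Neither gene's groups overlapped. Nbl1 and Fstl1, secreted proteins that bind BMPs, and Itgav, the integrin chain that partners Itgb6, were higher in the paired fit by 0.86, 1.19 and 0.28 on the log2 scale (adjusted p = 0.0134, 0.00833 and 0.0365), as were Twsg1, a BMP-binding protein, and the proprotein convertase Pcsk6 by 0.21 and 2.43 (adjusted p = 0.0366 and 0.0154). Rgma, a BMP coreceptor, was lower by 0.57 (log2 difference -0.57, adjusted p = 0.0120).

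By FceRIa status the unpaired fit called 0 of 45 regulators, and the paired fit called 9 higher and 3 lower, against 10.8% and 10.2% of all genes. Dab2 had 1784, 1192 and 1550 CPM in FceRIa-positive macrophages, against 735, 540 and 497 CPM in FceRIa-negative macrophages (paired log2 difference 1.37 ± 0.12, adjusted p = 0.000366 paired and 0.0591 unpaired). Mmp14, a membrane protease able to release TGF-beta, had 827, 758 and 865 CPM against 596, 554 and 521 CPM (adjusted p = 0.00469 paired and 0.0745 unpaired), and Nrros had 222, 257 and 244 CPM against 179, 217 and 179 CPM (adjusted p = 0.0166 paired and 0.236 unpaired). All 3 had every positive library above every negative one. Crim1, a BMP-binding membrane protein, Rgmb, a BMP coreceptor, and Eng were higher in the paired fit by 0.86, 0.42 and 0.45 on the log2 scale (adjusted p = 0.0319, 0.0319 and 0.0190). Twsg1 and Itgb8, whose integrin activates latent TGF-beta, were lower, with paired log2 differences of -0.47 and -1.08 (adjusted p = 0.00603 and 0.0428).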

How the data were processed

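Libraries were prepared with Illumina TruSeq v2 from Trizol-extracted RNA (100 ng), per the labels. The deposited values are raw counts of reads per gene, made by the authors. The submitters' processing notes name STAR, FastQC and mm10 (GRCm38) and give no versions. Counting tool, strand setting and annotation release were not stated there or in the labels, so reads of overlapping genes cannot be told apart. The 4 count columns that match no sample were not used.

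Counts were tested with edgeR 4.0.16 (R 4.3.3) by the quasi-likelihood test after TMM scaling and filterByExpr, with Benjamini-Hochberg adjusted p under 0.05 over all genes as the threshold, without the replicate number (main) and with it as a block. Positive and negative cells were compared over 6 libraries, and the mean of the 2 carcinoma groups with that of the 2 macrophage groups over all 12, with a 2-fold minimum. Log2 differences are fitted values with SE. The deviations of same-numbered libraries from their group means had correlations of 0.449, 0.703 and 0.488 (carcinoma cells) and 0.688, 0.787 and 0.734 (macrophages). Each exceeded 0.1, so the numbers were taken as pairing the samples, although the labels do not say what they mark and carcinoma replicates 1 and 3 also correlated across numbers (0.483 and 0.488). Exon lengths and gene coordinates are from GENCODE M21 (GRCm38), which held 53620 of the row IDs. The members, regulator lists, markers and tests were chosen with earlier results of these data known. Genes were named at 1 CPM in any group or when called, and regulators by the 8 smallest p (4 largest and 4 smallest differences between cell types). Alternatives were DESeq2 1.42.0, other scaling factors and filters, the block, summed libraries and leaving out libraries or replicate numbers. The scripts were tested on simulated data.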

Additional observations from a re-analysis of the deposited data

Results flagged for a closer look

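In 3 of 61 tested sets of 6 libraries (all carcinoma or all macrophage libraries of a gene), 1 library stood far from the others, with a gap to its neighbour above 0.625 of the whole range. Chance flags about 1 in 20 sets. Gdf11 in reporter-positive carcinoma replicate 2 was at 2.54 CPM, with the other 5 libraries at 0.813 to 1.27 CPM (gap 0.737 of the range). Gdf3 in FceRIa-positive macrophage replicate 3 was at 6.297 CPM, with the others at 2.14 to 3.49 CPM (0.675). Gdf9 in FceRIa-negative macrophage replicate 3 was at 0.914 CPM, with the others at 1.60 to 1.94 CPM (0.673).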

How the results depend on the processing

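Of the results of single named genes, 35 of 37 between cell types, 25 of 32 in macrophages and 15 of 33 in carcinoma cells kept their call, or stayed without one, under every alternative. Between cell types the count of members ran from 16 to 20 higher (main 17) and from 8 to 13 lower (main 9), and that of regulators from 17 to 19 higher (main 18) when a library was left out. Without the 2-fold minimum 17 regulators were lower, against 11 with it, and leaving out a library gave 10 to 12.

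By reporter status, members higher numbered 0 in the unpaired fit, 3 with DESeq2, 1 each with upper quartile factors, no count filter and a 1 CPM filter, 6 in the paired fit (replicate block), 4 in the paired DESeq2 fit and 4 in the paired fit with replicates 1 and 3 summed. Leaving out a library or a number gave 0 to 15, the 15 without replicate 2. Members lower numbered 1 unpaired, 2 in the paired edgeR and DESeq2 fits, 1 in the paired and 0 in the unpaired fit with replicates 1 and 3 summed, and 0 to 4 on leaving out. Regulators higher numbered 0 unpaired, 4 with DESeq2, 1 without a count filter, 7 paired, 5 in the paired DESeq2 fit, 5 with the sum, and 0 to 19 on leaving out. Regulators lower numbered 0, 1 with DESeq2, 4, 2, 1 and 0 to 8 in the same order. Bmp1 had a log2 difference of -0.0013 in the unpaired fit and 0.093 without replicate 2 (adjusted p = 0.0149 unpaired and 0.00670 paired), and -0.058 to 0.11 when 1 library was left out.

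By FceRIa status, members higher numbered 0 unpaired, 1 with DESeq2, 1 without a count filter, 5 in both paired fits and 0 to 5 on leaving out, and members lower 0, then 1 in both paired fits and 0 to 2 on leaving out. Regulators higher numbered 0 unpaired, 2 with DESeq2, 1 without a count filter, 9 and 10 in the paired edgeR and DESeq2 fits and 0 to 9 on leaving out, and regulators lower 0, 1 with DESeq2, 3, 2 and 0 to 3. The cause of these changes was not tested, beyond the paired fits having a smaller spread (biological coefficient of variation 0.0764 paired and 0.188 unpaired in carcinoma cells, 0.102 and 0.302 in macrophages) on 2 residual degrees of freedom in place of 4. Genes under 1 CPM are limited by depth. Shares over all genes are given above only for the main fits, the paired edgeR fits and, within a cell type, DESeq2 without the block. The other counts in this section have no such background, and they describe only how the calls depend on the processing.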
